A study of Homo sapiens with 8 samples.

Results

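Histone genes were followed through RNA sequencing of HepG2, a line established from a human hepatocellular carcinoma, in a mock group and in a group overexpressing EDN1, the gene of the precursor of the vasoconstrictor peptide endothelin-1. The members were taken by a rule on symbols that used no measured value. Earlier results of these data were known when the rule was set. A total of 70 genes with symbols starting HIST1H, HIST2H, HIST3H or HIST4H formed the replication-dependent class, and 16 genes starting H1F, H2AF or H3F formed the variant class. Together these were 86 of the 24462 genes in the table. The pseudogenes HIST1H2APS1, HIST2H2BA, HIST2H2BC and H3F3AP4 and the antisense RNA gene H1FX-AS1 were left out.

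Each group held 4 libraries, named here by group and by the replicate number in the titles, and both groups were grown in the same medium with no other treatment given. The labels do not state the vector, the method of overexpression, the number of clones or whether replicates were grown apart, so p-values here reflect only how these libraries scattered, which may be technical. Total counts ranged from 8409173 to 14932385 per library. EDN1 was at 2.33, 1.07, 1.03 and 1.34 CPM (counts scaled in the usual way to the library total) in mock 1 to 4, and at 240, 266, 425 and 520 CPM in EDN1 1 to 4. Every library matched its label by this gene. The 10 hepatocyte markers summed to between 6129 and 8745 CPM per library, against 4.19 to 8.70 CPM for 7 fibroblast markers and 0.343 to 0.804 CPM for 4 endothelial markers. Of the immune markers, PTPRC had at most 1 count in any library and CD3E had 0, whereas LYZ reached 370 to 752 CPM and CD68 6.87 to 17.7 CPM. An earlier examination of these data had found that mock 4, EDN1 3 and EDN1 4 resembled each other more than the other 5 libraries. Pearson's r of log2 CPM across genes was 0.958 to 0.987 within these library sets and 0.936 to 0.972 between them. The labels name no batch that corresponds to these sets.

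Histones H2A, H2B, H3 and H4 form the nucleosome core around which DNA is wrapped, and H1 binds the linker DNA. Replication-dependent histone genes are transcribed in S phase, and their mRNAs as a rule end in a conserved stem-loop, bound by SLBP, in place of a poly(A) tail. Variant histones such as H3.3, H2A.Z, macroH2A and H1.0 are made through the cell cycle from ordinary polyadenylated mRNAs and are placed outside replication. The labels name a Lexogen QuantSeq kit. Kits of this name prime cDNA synthesis with oligo(dT), so that mRNA without a tail is as a rule read poorly. The catalogue number beside the name may belong to another kit of that maker, in which case the priming, and with it the bearing of adenine runs and of gene length on the counts, would differ. Gene counts do not show where in a transcript the reads lay.

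Transcript ends show how far the annotation of the members follows this division. The transcripts of GENCODE release 29 (GRCh38) were matched by gene to all 86 members, while the deposited counts were made on hg19. They were searched on the sense strand for a hairpin of 16 bases, GGNNNNTTNNNNNNCC with 6 base pairs and a loop of 4 bases, after the coding sequence. Among the replication-dependent members, 36 had a transcript reaching more than 30 bases past the coding sequence, and 31 of these 36 held the hairpin. The other 34 were annotated only to about the end of the coding sequence. Of the 16 variants, H2AFX alone held it. For comparison, 2.16% of 19669 protein-coding genes held the pattern anywhere in a transcript. The hairpins of 5 measured members are shown with 5 bases on either side, the hairpin in capitals.
HIST2H2AA4: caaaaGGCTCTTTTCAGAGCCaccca
HIST2H2BE: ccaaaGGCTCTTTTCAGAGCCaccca
HIST1H4J: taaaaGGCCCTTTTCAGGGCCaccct
HIST1H2BD: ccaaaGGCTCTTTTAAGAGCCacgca
H2AFX: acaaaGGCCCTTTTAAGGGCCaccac

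The H2AFX transcript thus carries the mark of a replication-dependent mRNA and continues 1044 bases beyond it. HIST2H2BE, which encodes an H2B, continues 1729 bases beyond its hairpin, whereas HIST1H4J, which encodes an H4, ends 6 bases after it. The 5 members that reached past the coding sequence without a match were HIST1H4C, HIST1H1E, HIST1H3E, HIST1H1T and HIST1H2BJ. The lack of a match says only that these letters are not in the annotated transcript.

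The polyadenylation signals AATAAA and ATTAAA were looked for in the last 40 bases of each transcript. A signal was found in 22 of the 70 replication-dependent members, all of them among the 36 reaching past the coding sequence. In the members annotated only to about the end of the coding sequence, the last 40 bases are nearly all coding sequence. The signal was found in 12 of the 16 variants, against 80.8% of the 19669 protein-coding genes. Of the 22, 20 also held the hairpin, in the same transcript or in another of the gene. In HIST1H4J the signal lies before the hairpin and not after it. The signal is shown in capitals for 2 replication-dependent members with a hairpin upstream in the same transcript and for 2 of the most counted variants, each line running to the transcript end.
HIST2H2AA4: caAATAAAagagttgttaatgctg
HIST2H2BE: ttAATAAAgttaccaattaatttaaa
H2AFZ: tcAATAAAggtcatatcccaaa
H3F3B: aaAATAAAatttttgaagttaa

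Adenine-rich stretches were also counted, because an oligo(dT) primer, if one was used, pairs with runs of adenine. The window of 20 bases with the most adenines is shown in capitals for the 2 most counted replication-dependent genes, for a second gene of the H1 class, and for the H3.3 genes.
HIST1H4C: acttcAAAAAACAAAAACAAAAAAA
HIST1H1C: gagcgCTAAGAAAACACCGAAGAAAgcgaa
HIST1H1E: gagccAAAAAAGCGAAAAGCCCGAAaaagg
H3F3A: tcattCTCAAAAAAAAAAAAAAAAAtttct
H3F3B: ttcctTTAAAAAAAAAAAAAGTAAAcctgg

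The annotated HIST1H4C transcript ends in its window, with 18 adenines in 20 bases. The windows of HIST1H1C and HIST1H1E hold 12 each and lie in the coding sequence, and those of H3F3A and H3F3B hold 17 and 16 after the coding sequence. The annotated HIST1H1C transcript stops at about the end of the coding sequence, so a window beyond it could not be found. A window of at least 18 adenines was present in 0.2% of annotated protein-coding transcripts of 300 to 600 bases and in 9.97% of protein-coding genes. Among the 70 replication-dependent members 2 had one, HIST1H4C and HIST1H2BG. HIST1H2BG, with 20 adenines in its window, had 26 counts over all 8 libraries and a mean of 0.289 CPM, whereas HIST1H4C had 27218 counts and a mean of 305 CPM. The median of the richest window was 10 adenines in the 16 replication-dependent members that passed the low count filter, and 10.50 in the 54 that did not. Many of both are annotated only to about the end of the coding sequence. Among those annotated further, the median was 10 in the 9 that passed and 12 in the 27 that did not. Whether reads began at any of these stretches was not tested.

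**Figure D1:**
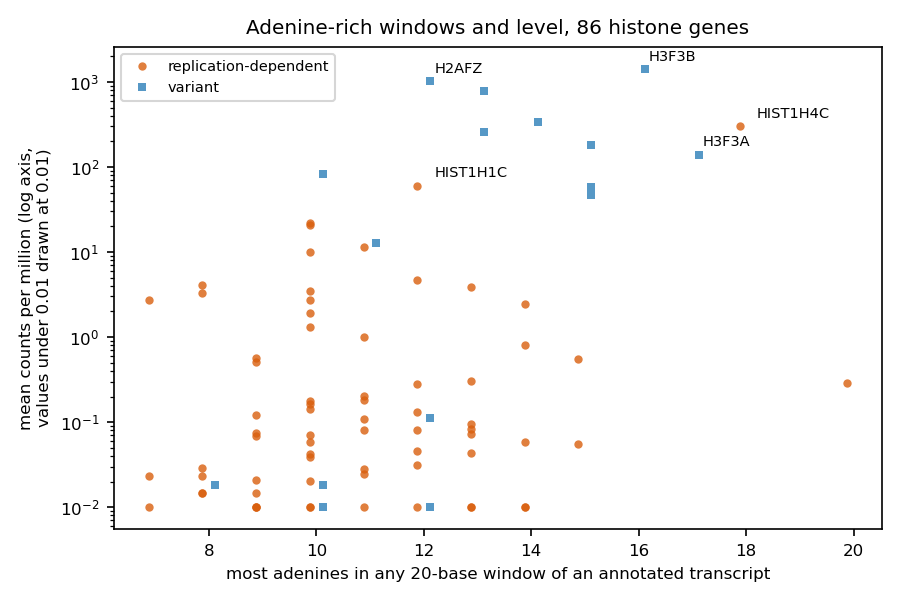
Most adenines in any 20-base window of an annotated transcript (x axis, count) against the mean level over the 8 libraries (y axis, CPM, log axis), 1 point per gene for 70 replication-dependent and 16 variant histone genes. HIST1H4C lies apart from the other replication-dependent genes at 18 adenines and 305 CPM, while the gene at 20 adenines, HIST1H2BG, is at 0.289 CPM.

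Variant histone transcripts made up most of the histone signal. The 16 variants summed to 4875, 3775, 4851 and 4359 CPM in mock 1 to 4 and to 4281, 4492, 4270 and 3946 CPM in EDN1 1 to 4. The 70 replication-dependent genes summed to 449, 261, 480 and 691 CPM in mock 1 to 4 and to 360, 423, 717 and 349 CPM in EDN1 1 to 4. The variant sum was thus above the replication-dependent sum in every library, and the groups overlapped in both sums. The replication-dependent class held 6.47% to 14.4% of all histone counts in a library, and 10.0% of them over the 8 libraries (41355 of 413728). It had its lowest share in mock 2 and its highest in EDN1 3, with mock 4 next at 13.7%. In bulk RNA, fewer cells in S phase and less histone mRNA per cell cannot be told apart.

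A single gene carried most of the replication-dependent signal. HIST1H4C, an H4 gene, held 47.1% to 71.1% of the counts of its class in a library and 65.8% over all libraries. HIST1H1C, the gene of linker histone H1.2, held 8.44% to 16.6%. Both together held between 58.3% in mock 2 and 86.4% in mock 4. Without HIST1H4C the class summed to 168, 138, 150 and 208 CPM in mock 1 to 4 and to 146, 160, 207 and 117 CPM in EDN1 1 to 4. In the variant class H3F3B, H2AFZ and H1F0 together held 70.7% to 76.9% of the counts.

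**Figure D2:**
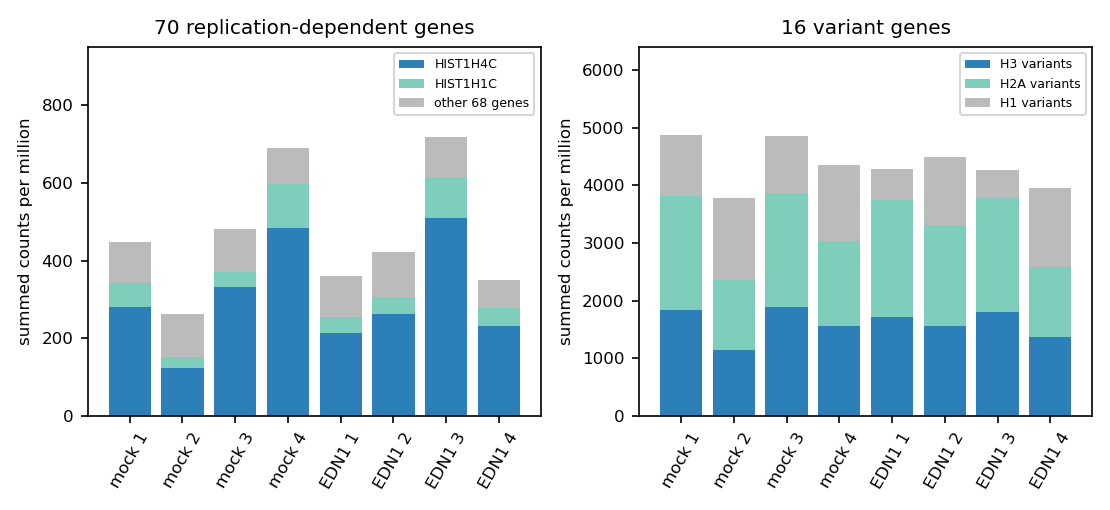
Summed level (y axis, CPM of the library total, from 0) of the 70 replication-dependent genes (left) and the 16 variant genes (right) in each library, stacked by gene or by histone type. HIST1H4C is the tallest block of the left panel in every library, least clearly in mock 2, and the left-hand totals of mock 4 (691) and EDN1 3 (717) exceed those of the other 6 libraries.

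Most replication-dependent genes were at the limit of detection. Of the 70, 10 had 0 counts in all libraries, 28 more had at most 3 counts in every library, 16 lay in between and 16 passed the low count filter. Where a library has 0 counts, up to 3 are compatible with it, equal to between 0.201 and 0.357 CPM over the libraries (counting error only). By family, the filter was passed by 2 of 6 H1 genes, 7 of 17 H2A genes, 3 of 18 H2B genes, 1 of 14 H3 genes and 3 of 15 H4 genes. Only 6 reached a mean of 10 CPM, namely HIST1H4C, HIST1H1C, HIST1H2BK, HIST2H2AA4, HIST2H2BE and HIST2H2AA3. The most counted gene outside the filter was HIST1H2AM, with 118 counts in all. Genes known from testis were at or near 0, with 3 counts in total for HIST1H1T, 1 for HIST1H2BA and 0 for HIST3H3. Of the 16 variants, 11 passed the filter and all 11 had at least 10 CPM. The other 5 were germ-line genes, with 9 counts in total for the oocyte linker histone H1FOO, 2 each for H2AFB1 and H2AFB2, and 0 for H1FNT and H2AFB3.

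Levels of different genes were compared as CPM per kilobase of the deposited gene length. This scale understates long genes if each transcript gives 1 tag near its end, so the order by CPM is given too. Per kilobase, H2AFZ led with a mean of 1086 (range over the 8 libraries 698 to 1333), followed by HIST1H4C at 781 (315 to 1308), H3F3B at 497 (337 to 585) and H1F0 at 337 (150 to 477). Each neighbour in this order overlapped the next over the libraries. H1FX at 170 (90.5 to 246), H3F3A at 131 (111 to 153), H2AFY at 84.7 (71.9 to 92.8) and HIST1H1C at 82.0 (40.1 to 156) came next. The range of H2AFY lay below that of H3F3A, and that of HIST1H1C overlapped both. By CPM, HIST1H4C ranked the fifth of the 86 and HIST1H1C the tenth, and the only other genes above them were variants.

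**Figure D3:**
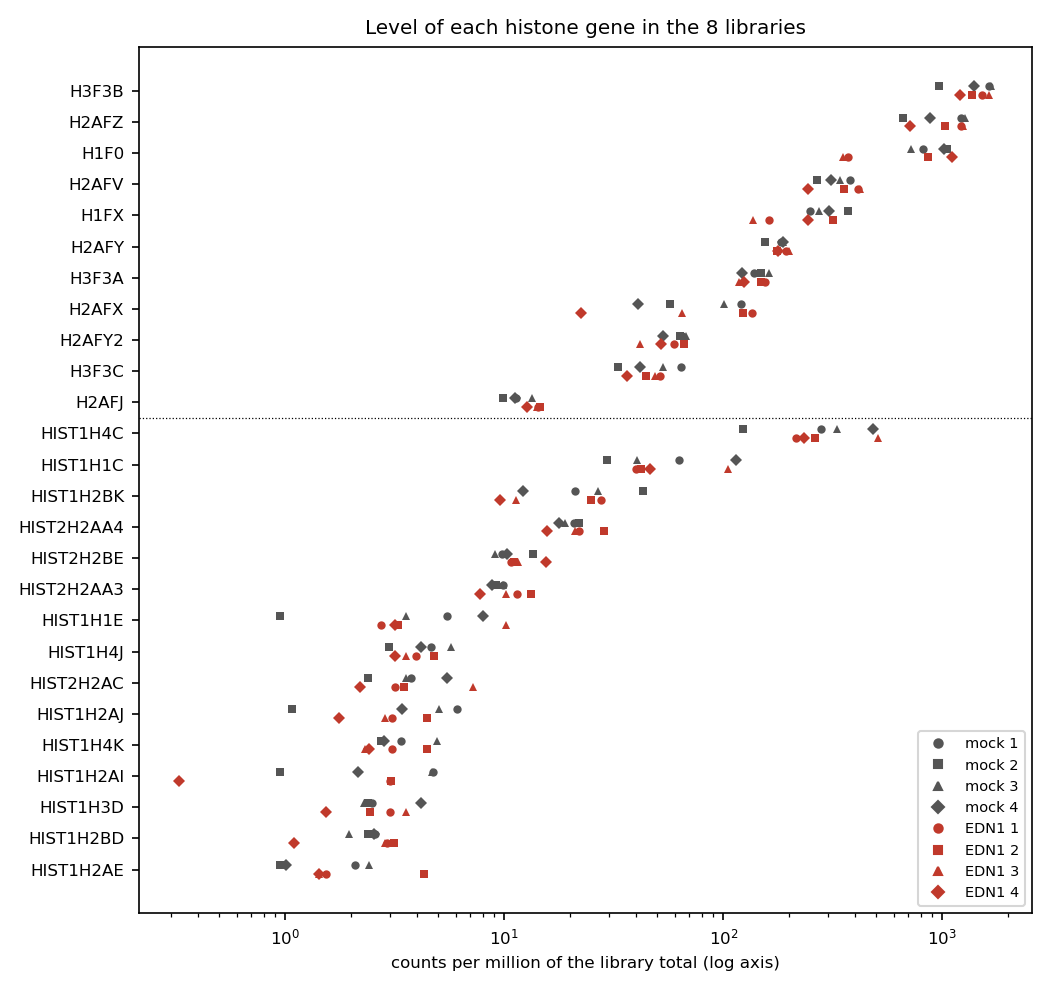
Level (x axis, CPM of the library total, log axis) of the 11 variants that passed the filter (above the dotted line) and the 15 most counted replication-dependent genes (below it) in each library, with mock libraries in grey, EDN1 overexpression libraries in red and a marker shape for each replicate number. Grey and red points overlap for every gene shown, and the replication-dependent genes fall from 305 CPM for HIST1H4C to 1.89 CPM for HIST1H2AE.

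HIST1H4C stood at 280, 123, 331 and 483 CPM in mock 1 to 4 and at 214, 263, 510 and 232 CPM in EDN1 1 to 4. It was highest in EDN1 3 and mock 4 and lowest in mock 2, and the groups overlapped. The other H4 genes were far lower. HIST1H4J ranged from 2.97 to 5.72 CPM and HIST1H4K from 2.32 to 4.92 CPM. Annotated transcripts of HIST1H4J and HIST1H4K are 100% identical over 312 aligned bases, so the division of reads between them is uncertain.

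The H1 genes showed the same extremes as HIST1H4C. HIST1H1C stood at 62.6, 29.4, 40.5 and 114 CPM in mock 1 to 4 and at 39.96, 41.9, 105 and 46.4 CPM in EDN1 1 to 4. HIST1H1E, the gene of linker histone H1.4, stood at 5.45, 0.951, 3.55 and 7.97 CPM in mock and at 2.74, 3.27, 10.2 and 3.18 CPM in EDN1 overexpression. Both were high in mock 4 and EDN1 3 and lowest in mock 2. The other replication-dependent H1 genes were scarcely counted, with 25 counts in all for HIST1H1B, 6 for HIST1H1D and 0 for HIST1H1A.

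Of the H2A genes, HIST2H2AA4 stood at 20.9, 22.0, 19.0 and 17.8 CPM in mock and at 21.8, 28.6, 21.1 and 15.7 CPM in EDN1 overexpression. It varied 1.83-fold between the highest and lowest library, less than the 4.15-fold of HIST1H4C. HIST2H2AA3 had 41.6% to 52.2% of the counts of HIST2H2AA4 in each library. The deposited length is 534 bases for HIST2H2AA3 and 1068 bases for HIST2H2AA4. Per kilobase of it, their means were 18.8 and 19.5 CPM. The annotated transcripts of this pair are 100% identical over 549 bases, so their counts are uncertain as separate values. HIST2H2AC stood at 3.77, 2.38, 3.55 and 5.49 CPM in mock and at 3.17, 3.50, 7.23 and 2.19 CPM in EDN1 overexpression, again highest in EDN1 3 and mock 4. HIST1H2AI and HIST1H2AJ, whose transcripts are 98.2% identical over 384 aligned bases, reached 0.328 to 4.73 CPM and 1.07 to 6.10 CPM. HIST1H2AE ranged from 0.951 to 4.32 CPM and HIST2H2AB from 0.238 to 2.08 CPM.

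Of the H2B genes, HIST1H2BK ran opposite to HIST1H4C in several libraries. It stood at 21.0, 43.2, 26.9 and 12.1 CPM in mock and at 27.7, 25.0, 11.3 and 9.53 CPM in EDN1 overexpression. Its highest library was mock 2, where HIST1H4C was lowest, and its 3 lowest were EDN1 4, EDN1 3 and mock 4, the libraries of the second set. The annotation places HIST1H4I over part of HIST1H2BK, and the use of strand in the counting is not given in the sources used here. HIST2H2BE stood at 9.79, 13.6, 9.04 and 10.3 CPM in mock and at 10.7, 11.1, 11.5 and 15.5 CPM in EDN1 overexpression. HIST1H2BD ranged from 1.095 to 3.15 CPM. HIST1H3D, the only H3 gene past the filter, ranged from 1.53 to 4.15 CPM and overlaps HIST1H2AD in the annotation.

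The libraries thus differed by gene and not by class as a whole. In 6 of the 16 tested replication-dependent genes the top 2 libraries were mock 4 and EDN1 3, namely HIST1H4C, HIST1H1C, HIST1H1E, HIST2H2AC, HIST1H3D and HIST2H2AB. This was so for 0 of the 11 tested variants. The share of all genes tested with these top 2 libraries was not counted, so the pattern is not shown to be particular to the class. The lowest library was mock 2 in 7 of the 16 and EDN1 4 in another 7. Among the 11 variants the lowest library was mock 2 in 5, EDN1 3 in 4 and EDN1 4 in 2. Summed by cluster, the 55 HIST1 genes ranged from 214 CPM in mock 2 to 665 CPM in EDN1 3. The 11 HIST2 genes stayed between 41.6 and 56.9 CPM. Most of the HIST1 range came from 2 genes. From mock 2 to EDN1 3, HIST1H4C went from 123 to 510 CPM and HIST1H1C from 29.4 to 105 CPM. HIST1H2BK, of the same cluster, went from 43.2 to 11.3 CPM, so the range is not that of the cluster as a whole. These tallies describe the 8 libraries and carry no test.

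**Figure D4:**
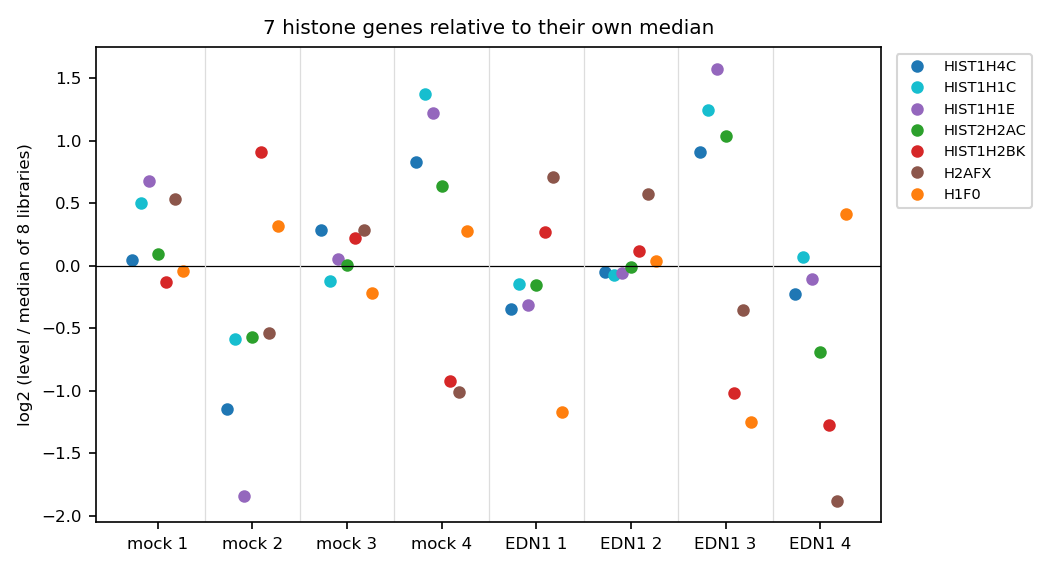
Level of 7 histone genes in each library relative to the gene's own median over the 8 libraries (y axis, log2 ratio), with the genes chosen after their values were seen. HIST1H4C, HIST1H1C, HIST1H1E and HIST2H2AC lie above their medians in mock 4 and EDN1 3, where HIST1H2BK and H2AFX lie below theirs, and H1F0 is lowest in EDN1 1 and EDN1 3.

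The summed levels of proliferation genes did not share the peak of mock 4. The 25 S phase and replication genes summed to 1699, 1302, 1718 and 1345 CPM in mock and to 2209, 1807, 2041 and 1027 CPM in EDN1 overexpression. The 15 G2 and mitosis genes summed to 2183, 1142, 2155 and 1762 CPM in mock and to 2493, 2068, 3043 and 1560 CPM in EDN1 overexpression. Mock 4 was thus the third lowest for S phase genes, while it was second highest for HIST1H4C. EDN1 3 was high for both. Mock 2, where HIST1H4C was lowest, was also the lowest for G2 and mitosis genes and was low for S phase genes. Single genes differed. POLA1 was highest in EDN1 3 and mock 4 and lowest in mock 2, whereas E2F1 was low in mock 4 and lowest in EDN1 4. The part of cell cycle distribution in the histone levels was not tested.

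H3F3B and H3F3A encode the same protein, the replication-independent histone H3.3. H3F3B stood at 1636, 965, 1674 and 1399 CPM in mock and at 1509, 1360, 1627 and 1209 CPM in EDN1 overexpression. H3F3A stood at 138, 149, 162 and 122 CPM in mock and at 154, 148, 117 and 124 CPM in EDN1 overexpression, so that it gave 6.73% to 13.4% of the counts of both genes. H3F3B was lowest in mock 2, and the groups overlapped for both genes. H3F3C had 2.97% to 3.902% of the counts of H3F3B in every library. Its transcript is 96.1% identical to that of H3F3B over 1064 aligned bases, and its counts are therefore uncertain. CENPA, the centromeric H3 variant, whose symbol is outside the choice of members, ranged from 5.47 to 21.3 CPM.

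H2AFZ and H2AFV encode the H2A.Z proteins, found around promoters. H2AFZ stood at 1219, 661, 1262 and 877 CPM in mock and at 1216, 1033, 1248 and 714 CPM in EDN1 overexpression. It was low in mock 2, EDN1 4 and mock 4. H2AFV ran at 26.9% to 40.4% of the H2AFZ counts. The macroH2A gene H2AFY was the steadiest of the variants, between 155 and 200 CPM with the highest library 1.29-fold above the lowest, and H2AFY2, its paralog, ranged from 41.6 to 67.3 CPM. H2AFJ, the gene of H2A.J, ranged from 9.87 to 14.6 CPM.

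H2AFX, the histone that is phosphorylated around DNA breaks, was the most variable of the tested variants. It stood at 120, 57.1, 101 and 41.0 CPM in mock and at 135, 123, 64.6 and 22.4 CPM in EDN1 overexpression. The highest library was 6.02-fold above the lowest, and EDN1 4 and mock 4 were the lowest 2. The annotation places DPAGT1 over part of H2AFX. In EDN1 3, H2AFX was below its median, while HIST1H4C was at its highest.

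Both linker variants were low in the same pair of EDN1 overexpression libraries. H1F0, the gene of H1.0, which accumulates in cells that have left the cycle, stood at 814, 1044, 720 and 1014 CPM in mock and at 371, 857, 351 and 1112 CPM in EDN1 overexpression. H1FX stood at 248, 371, 272 and 303 CPM in mock and at 162, 317, 136 and 243 CPM in EDN1 overexpression. EDN1 1 and EDN1 3 lay below all 4 mock libraries for both genes, while EDN1 2 lay among the mock libraries for both. EDN1 4 was the highest of the 8 for H1F0, but for H1FX it too lay below all 4 mock libraries, at 243 CPM against a lowest mock value of 248 CPM. LYZ was also low in EDN1 1 and EDN1 3, at 370 and 374 CPM, and the summed S phase genes were highest there. The part of these in the linker variant levels was not tested.

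No histone gene was called between the groups. Over 12577 genes tested by edgeR (quasi-likelihood, p adjusted by Benjamini-Hochberg), 1 gene passed the threshold of 0.05, namely EDN1 (0.00795% of the genes tested, adjusted p = 1.68e-05). Among the 16 tested replication-dependent genes 0 were called, 0 had an unadjusted p under 0.05, against 2.85% of all genes tested, and 0 had groups that did not overlap, against 2.21%. The fold change was positive for 7 and negative for 9, with a median log2 fold change of -0.08, beside 0.00 for all genes tested. The smallest adjusted p over the members was 0.999945. Among the 11 tested variants 0 were called by the same test, 0 had an unadjusted p under 0.05 and 0 had groups that did not overlap. The fold change was positive for 5 and negative for 6, with a median of -0.03. DESeq2 called 0 members as well.

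The intervals show what size of change these libraries could have hidden. Changes above 2-fold were outside the 95% interval for 9 of the 16 replication-dependent genes and for 8 of the 11 variants, beside 9981 of the 12577 genes tested. HIST1H4C had a mean of 304 ± 148 CPM in the mock libraries and of 305 ± 138 CPM in the EDN1 overexpression libraries (SD, n = 4 each), and its log2 fold change was -0.03 (SE 0.39, with 95% limits of -0.89 and 0.83). For HIST1H1C the log2 fold change was -0.12 (SE 0.43, -1.08 to 0.84), and for HIST1H1E 0.05 (SE 0.57, -1.22 to 1.33). Among the members, the narrowest intervals belonged to H2AFY, with 0.04 (SE 0.13, -0.25 to 0.32), and H3F3A, with -0.11 (SE 0.15, -0.43 to 0.21). A change of more than 2-fold in HIST1H1E was therefore within its interval, and one in H2AFY was not.

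Among the members with a mean of at least 10 CPM, the most negative fold changes belonged to HIST1H2BK and the linker variants. Of the less counted members, HIST2H2AB had -0.53 and HIST1H2AI -0.45. The log2 fold change of HIST1H2BK was -0.54 (SE 0.42, -1.46 to 0.38), which was -0.15 without mock 2 and -0.79 without EDN1 1. With the library set as a term it was -0.26, and the sets taken alone gave -0.28 (first) and -0.25 (second). H1FX had -0.51 (SE 0.27, -1.11 to 0.08), between -0.74 without EDN1 2 and -0.34 without EDN1 3. H1F0 had -0.43 (SE 0.37, -1.26 to 0.39), between -0.84 without EDN1 4 and -0.22 without EDN1 3. With the library set as a term H1FX had -0.49 and H1F0 -0.52. The sign stayed negative for these 3 genes without any 1 library, but none passed the test. Of the 27 named members, 14 changed sign when 1 library was left out, 9 of them replication-dependent and 5 variants.

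Single libraries also set the direction of the replication-dependent class. The class summed to 470 ± 176 CPM in the mock libraries and to 462 ± 173 CPM in the EDN1 overexpression libraries (SD, n = 4 each), a log2 ratio of the means of -0.02. This ratio was 0.22 without mock 4 and -0.32 without EDN1 3. The median log2 fold change of its tested genes was 0.10 without mock 4 and -0.35 without EDN1 3. Within the first library set (mock 1 to 3, EDN1 1 and EDN1 2) the log2 fold change of HIST1H4C was -0.10 (SE 0.35), and within the second (mock 4, EDN1 3 and EDN1 4), with a lone mock library assumed to vary like the others, -0.43 (SE 0.46). The variants summed to 4465 ± 518 CPM in the mock libraries and to 4247 ± 225 CPM in the EDN1 overexpression libraries.

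**Figure D5:**
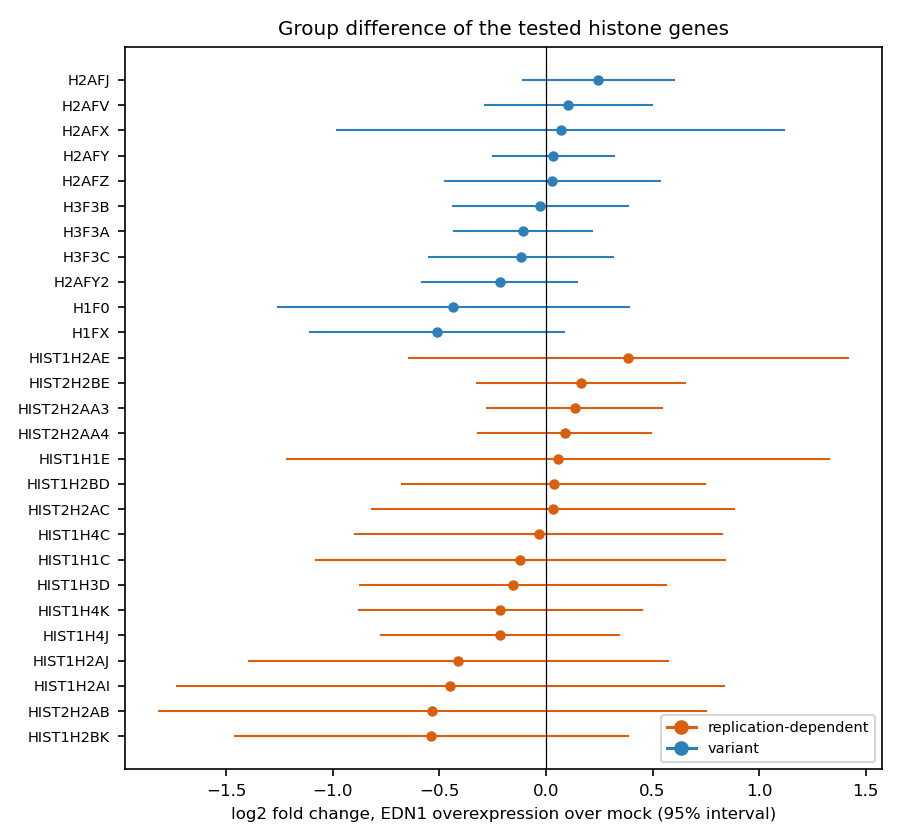
Log2 fold change of EDN1 overexpression over mock (x axis) from edgeR's fit for the 11 tested variants and 16 tested replication-dependent genes (y axis), with points for the estimate and bars for its 95% interval. All 27 intervals include 0, and those of HIST2H2AB, HIST1H2AI and HIST1H1E are the widest.

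Genes that act on histone mRNA and histone proteins were measured beside the members. All 24 listed genes of histone mRNA transcription and processing were tested, of which 14 had a positive and 10 a negative fold change, with a median of 0.00 and 0 called. SLBP, which binds the stem-loop, stood at 29.7, 23.8, 28.2 and 27.3 CPM in mock and at 42.0, 36.3, 39.4 and 27.2 CPM in EDN1 overexpression. EDN1 1 to 3 lay above all mock libraries and EDN1 4 lay among them. Its log2 fold change was 0.37 (SE 0.15), with an unadjusted p of 0.0345 and an adjusted p of 0.999945. NPAT, the activator of histone gene transcription in S phase, had 0.19 (SE 0.22) and its partner CASP8AP2 0.41 (SE 0.22). NELFB had 0.34 (SE 0.22) and SYMPK, a scaffold of the cleavage complex, -0.20 (SE 0.15).

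The 26 histone chaperone and deposition genes divided into 13 positive and 13 negative fold changes, with a median of -0.02 and 0 called. DAXX and ATRX, which deposit H3.3, had 0.44 (SE 0.26) and 0.30 (SE 0.26). CHAF1A, of the complex that deposits H3 and H4 at replication forks, had 0.38 (SE 0.29), and the chaperone ASF1A had -0.23 (SE 0.17). Of the 25 S phase and replication genes 19 had a positive fold change and 0 were called, with a median of 0.14. The examples were FEN1 with 0.54 (SE 0.29), ORC1 with 0.45 (SE 0.25), MCM4 with 0.44 (SE 0.24) and CCNE1 with 0.43 (SE 0.28). Of the 15 G2 and mitosis genes 14 had a positive fold change and 0 were called, with a median of 0.20. Of all genes tested, 50.3% had a positive fold change. The genes of a list share the same libraries, so these counts of signs are not independent and were not tested. The summed levels of both lists overlapped between the groups. UBE2C had 0.66 (SE 0.27, unadjusted p = 0.0334, adjusted p = 0.999945), CCNB1 0.53 (SE 0.35), BUB1 0.52 (SE 0.29) and TOP2A 0.43 (SE 0.24). CENPA had -0.07 (SE 0.33). The named genes of these lists were picked by their p in these libraries, so their fold changes are among the larger ones.

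Promoters were compared because HIST1H1C and HIST1H1E shared their lowest library and their top 2 libraries, in different order, and HIST1H2BK shared neither. These 3 genes were picked after their values were seen. The 250 bases before the RefSeq start (GRCh38.p14) were searched on both strands for the CCAAT box, for the TATAAA box, for the octamer ATTTGCAT and for an element of H1 promoters spelled AAACACA. In this search 65 replication-dependent members and 14 variants had an entry. CCAAT was found in 84.6% of the replication-dependent members and 85.7% of the variants, against 37.0% of 27305 genes. Within the replication-dependent class it was found in all H1, H2A, H2B and H3 members but in only 23.1% of H4 members. TATAAA was found in 67.7% of the replication-dependent members and 28.6% of the variants, against 13.0%. The octamer was found in 26 of 65 and in 7.1%, against 2.0%, and within the replication-dependent class in 77.8% of H2B and 68.8% of H2A members. AAACACA was found in 9.2% and 14.3%, against 6.0%. Within the replication-dependent class it was found in 6 of 6 H1 genes and in none of the other families. The 150 bases before the start are shown for these 3 genes, with the motifs of either strand in capitals, at chr6:26056471-26056620 (minus strand) for HIST1H1C, chr6:26156179-26156328 (plus strand) for HIST1H1E and chr6:27146859-27147008 (minus strand) for HIST1H2BK.
HIST1H1C: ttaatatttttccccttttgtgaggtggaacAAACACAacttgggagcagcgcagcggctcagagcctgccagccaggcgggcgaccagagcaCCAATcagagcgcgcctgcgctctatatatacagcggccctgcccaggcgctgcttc
HIST1H1E: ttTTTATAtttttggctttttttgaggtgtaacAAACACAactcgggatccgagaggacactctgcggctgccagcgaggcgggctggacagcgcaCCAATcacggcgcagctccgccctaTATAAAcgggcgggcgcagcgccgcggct
HIST1H2BK: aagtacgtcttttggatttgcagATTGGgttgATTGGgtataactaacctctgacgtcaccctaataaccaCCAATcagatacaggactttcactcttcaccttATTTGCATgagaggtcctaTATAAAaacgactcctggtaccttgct

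Both H1 promoters thus hold AAACACA and CCAAT, and that of HIST1H1E also holds TATAAA. The HIST1H2BK promoter holds CCAAT, the octamer and TATAAA. HIST1H4C, HIST2H2AC, HIST1H3D and HIST2H2AB shared the top 2 libraries of the H1 genes. They belong to families in which AAACACA was not found, and HIST1H4C had no promoter entry. A match is a description of letters and does not show binding. The counts do not measure activity at these promoters.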

How the data were processed

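RNA from 4 mock and 4 EDN1 overexpression libraries of HepG2 cells was sequenced from a Lexogen QuantSeq preparation, per the labels' protocols, though the catalogue number given there may belong to another kit of that maker. The authors deposited raw read counts per gene with a gene length. Per the submitters' processing notes, the tools were Bowtie2 and edgeR and the build was hg19. Versions, the counter, read filters and strand handling are not given in the sources available here. Groups came from the sample titles.

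The members and gene lists were chosen with earlier results of these data known. Rows of 1 symbol were summed, which took 25737 rows to 24462 genes. Levels are CPM of the library total, and per kilobase values divide by the deposited length. Low counts were removed with filterByExpr (minimum count 10), and the remaining genes were scaled by TMM and tested by the quasi-likelihood test of edgeR 4.0.16 (R 4.3.3) with group alone in the model, Benjamini-Hochberg adjustment over 12577 genes and a threshold of 0.05. The test was checked on simulated counts. No 2 libraries agreed within sampling noise (chi-square over degrees of freedom at least 6.16 and at most 86.5). Depth was 8409173 to 14932385 counts.

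Named genes were the 15 most counted replication-dependent members, the 4 with the smallest unadjusted p in each direction, every variant past the filter, SLBP, NPAT, CENPA and EDN1, and up to 4 genes of each list with the smallest p. Alternatives were DESeq2 1.42.0 and its size factors, no filter, the replicate number or library set as a term, each set alone, rows as deposited and leaving out each library. Transcripts came from GENCODE release 29 and promoters from RefSeq (GRCh38.p14). Identity was computed with blastn 2.17.0. Members were matched by symbol and gene identifier, all 86 to a transcript, and H1F0, H3F3C, HIST1H2AH, HIST1H3I, HIST1H3J, HIST1H4A and HIST1H4C to no promoter.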

Additional observations from a re-analysis of the deposited data

Results flagged for a closer look

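In 96 groups of 4 libraries (48 genes in each of the 2 groups), 13 had 1 library standing far from the other 3 by Dixon's criterion. Chance would give about 1 in 20 for normally distributed values. The genes share the same libraries and some were picked by their p, so the 13 are not independent and no excess was tested. In EDN1 3, HIST1H4C stood at 510 CPM, with the other 3 EDN1 overexpression libraries at 214 to 263. In the same library HIST1H1C stood at 105 CPM (others 39.96 to 46.4) and HIST1H1E at 10.2 CPM (others 2.74 to 3.27). CASP8AP2 at 14.7 CPM (others 10.50 to 10.8) and NELFB at 167 CPM (others 99.8 to 110) were also high there. In EDN1 4, HIST2H2BE was high at 15.5 CPM (others 10.7 to 11.5), while HIST1H2AI was low at 0.328 CPM (others 2.99 to 3.04) and HIST1H2BD low at 1.095 CPM (others 2.86 to 3.15). In EDN1 2, HIST1H2AE was high at 4.32 CPM (others 1.42 to 1.54). In mock 4, HIST1H3D was high at 4.15 CPM (others 2.29 to 2.49). In mock 2, H2AFY was low at 155 CPM (others 183 to 187), CHAF1A at 17.5 CPM (others 24.6 to 25.8) and CCNE1 at 9.87 CPM (others 16.9 to 17.97).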

How the results depend on the processing

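Over all genes DESeq2 called 3 genes where edgeR called 1, and no alternative called a histone gene or a gene of the lists. The replicate numbers were not treated as pairs. Deviations from the group means correlated between libraries of the same number at 0.48, 0.15, -0.15 and 0.53, and 4 of the 8 libraries correlated best with their own number. With the replicate number as a block, the calls over all genes stayed at 1, 550 genes had an unadjusted p under 0.05 (359 without it), among them the variants H1F0 (log2 fold change -0.62) and H1FX (-0.57). Both had an edgeR adjusted p of 0.954 under the block. The sign turned under the block for HIST1H4C (log2 fold change 0.0342), HIST2H2AC (-0.0281), HIST1H2BD (-0.0174) and H2AFX (-0.0889). With the library set as a term it turned for HIST1H1E (-0.26) and HIST2H2AC (-0.12). In the first set alone it turned for HIST2H2BE (-0.0563), HIST1H1E (-0.23), HIST2H2AC (-0.0297), HIST1H3D (0.13) and CENPA (0.12). In the second set alone it turned for HIST2H2AA3 (-0.0020), HIST1H1E (-0.30), HIST2H2AC (-0.27), HIST1H2BD (-0.40), H2AFY (-0.0197) and NPAT (-0.0108), and the replication-dependent median was -0.36. The cause was not tested. With each library left out, the log2 fold change ranged from -0.39 to 0.30 for HIST1H4C, -0.56 to 0.38 for HIST1H1C, -0.61 to 0.51 for HIST1H1E, -0.15 to 0.62 for HIST1H2AE, -0.0798 to 0.26 for HIST1H2BD, -0.33 to 0.12 for HIST1H3D, -0.0611 to 0.19 for HIST2H2AA4, -0.42 to 0.29 for HIST2H2AC and -0.00976 to 0.31 for HIST2H2BE. It ranged from -0.21 to 0.38 for H2AFX, -0.0174 to 0.0708 for H2AFY, -0.12 to 0.16 for H2AFZ, -0.17 to 0.0641 for H3F3B, -0.25 to 0.0289 for H3F3C and -0.32 to 0.22 for CENPA. None of these genes passed the test in any setting, so the signs are of changes within the error. H1FX was also lower at an unadjusted edgeR p of 0.0168 without EDN1 2 (adjusted p = 0.914), and H1F0 at 0.0254 without EDN1 4 (adjusted p = 0.848). Without a filter on low counts 60 replication-dependent genes were tested, of which 0 were called and 1, HIST2H3A with 10 counts in all, was lower at an unadjusted p under 0.05. With 8409173 counts in the shallowest library, 3 counts amount to 0.357 CPM, which limits what can be said of the 38 replication-dependent genes with at most 3 counts per library.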
